A study of Mus musculus with 4 samples.

Results

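The table of gene levels from these lung macrophages held 481 rows named for microRNA genes, among 27433 rows in all. The rows described here are the 244 of them whose mean over the 4 libraries was at least 1 FPKM, a count of reads scaled by the length of the row and by the library total. They were therefore chosen on their measured level, and their level itself is given as a description. They carry 242 names, because Mir677 and Mir3068 each have a pair of rows. Just inside the limit lay Mir7032, Mir1970 and Mir6386 at means of 1.02, 1.03 and 1.05 FPKM. Just outside it lay Mir687, Mir711 and Mir103-1 at 0.997, 0.994 and 0.984 FPKM. At that level a row rested on 6 to 8 reads summed over the 4 libraries on both sides of the limit.

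The cells were CD11b+ Ly6G- CD64+ macrophages with low Siglec-F, sorted from tumour-bearing lungs. The mice were chimeras: irradiated hosts of genotype KrasLSL-G12D/+ Lkb1fl/fl (KL) had received bone marrow of genotype Tmem173fl/fl in the WTKL group or Tmem173fl/fl;Lyz2-Cre in the LYZKL group. All hosts were given Ad-Cre, an adenovirus that carries Cre, into the nose, and cells were taken 8 weeks later. Each group has 2 libraries, and nothing in the labels says that they came from separate mice, so a p-value here measures the spread between these libraries, which may be technical. The Lyz2-Cre allele acts chiefly in cells of the macrophage and neutrophil lineages, and Tmem173 encodes STING, the adaptor through which cytosolic DNA induces interferon. Because the WTKL marrow carried no Cre, loss of Tmem173 and the Cre allele in Lyz2 cannot be told apart. Tmem173 itself read 15.4 and 15.2 FPKM in the WTKL libraries, against 5.02 and 4.75 FPKM in the LYZKL libraries (adjusted p = 0.0452, limma).

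MicroRNAs are cut out of longer RNAs in steps. The nuclear enzyme Drosha, with its partner Dgcr8, releases a hairpin from the primary transcript, Xpo5 carries the hairpin to the cytoplasm, and Dicer1 trims it to a short duplex, of which an Argonaute protein such as Ago2 keeps 1 strand. The bases at the start of that strand, the seed, pair with target mRNAs. Poly(A) selection and ordinary library preparation do not capture mature microRNAs, which have no poly(A) tail. Reads in a microRNA row therefore come from longer RNA that covers the hairpin: the primary transcript, an unspliced intron of a host gene, or an exon of a host mRNA. The rows describe such RNA, not the amount of active microRNA.

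The mature sequences of the rows that the results turn on are given from RefSeq (GRCm38.p6), 5′ to 3′, with the seed, bases 2 to 8, in capitals. Of the 242 names, 219 matched a mature sequence used here. The first set is of the 3 rows past the threshold in limma, Mir3060, Mir7026 and Mir6988, and of Mir5130.
mmu-miR-3060-5p: gGGAGUGCuucgugcuucug
mmu-miR-3060-3p: cCAUAGCAcagaagcacuccca
mmu-miR-7026-5p: uUCUGAGAccaugggguauau
mmu-miR-7026-3p: uGUGCUUUcuggucuuggcuuag
mmu-miR-6988-5p: gGGGUGGAgagcugaggccca
mmu-miR-6988-3p: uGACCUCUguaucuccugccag
mmu-miR-5130: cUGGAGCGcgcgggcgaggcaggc

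The next set is of microRNAs known from myeloid cells, shown because several of these rows share a seed or even a whole mature sequence. The rows Mir24-1 and Mir24-2, on chromosomes 13 and 8, both give miR-24-3p. The rows Mir29a, Mir29b-1 and Mir29c share 1 seed, as do Mir27a and Mir27b, Mir221 and Mir222, and Mir132 and Mir212.
mmu-miR-142a-3p: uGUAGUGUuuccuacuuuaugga
mmu-miR-146a-5p: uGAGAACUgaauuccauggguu
mmu-miR-223-3p: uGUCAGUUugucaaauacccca
mmu-miR-23a-3p: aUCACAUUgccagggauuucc
mmu-miR-27a-3p: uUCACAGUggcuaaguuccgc
mmu-miR-27b-3p: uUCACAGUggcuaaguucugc
mmu-miR-24-3p: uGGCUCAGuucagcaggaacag
mmu-miR-29a-3p: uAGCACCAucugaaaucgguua
mmu-miR-29b-3p: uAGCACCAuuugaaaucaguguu
mmu-miR-29c-3p: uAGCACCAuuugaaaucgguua
mmu-miR-221-3p: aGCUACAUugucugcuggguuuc
mmu-miR-222-3p: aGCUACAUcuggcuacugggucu
mmu-miR-132-3p: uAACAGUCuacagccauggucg
mmu-miR-212-3p: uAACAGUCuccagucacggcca

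Across the matched names there were 353 distinct mature sequences with 332 different seeds. A seed was shared by more than 1 row in 23 cases, which involved 45 rows. One of these groups joins rows with no common host: Mir7028, Mir7079 and Mir6911 share the seed GGGCUGA. The last of the sequences shown here are theirs.
mmu-miR-7028-5p: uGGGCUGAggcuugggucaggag
mmu-miR-7079-5p: aGGGCUGAggcagugaguccug
mmu-miR-6911-5p: uGGGCUGAgugggucuguggcau

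Few reads lie behind most of these rows. Library totals, worked out from the worth of 1 read, were 15466117 and 22867836 in WTKL and 16453512 and 18322164 in LYZKL. The microRNA rows above the limit held 0.0312% to 0.0371% of them. A row had a median length of 75 bases (51 to 139), in which 1 read was worth 0.583 to 0.862 FPKM. The median row held 20 reads over all 4 libraries, against 1431 for all rows tested. Fewer than 20 reads lay behind 120 of the 244 rows, and 38 rows had at least 100. The row with most reads, Mir5107, held 19.5% of all reads in these rows, and the 6 rows with most reads held 46.0%. In log2(FPKM + 1), the median SD between replicate libraries was 0.40 in WTKL and 0.41 in LYZKL for microRNA rows, against 0.07 in both groups for all rows tested. Among the 120 rows with under 20 reads it was 0.53 and 0.59.

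Rows that share bases also shared reads, so the rows are not independent. Mir142 and Mir142b lie on opposite strands of the same 115 bases. Their reads were 202 and 244 in WTKL replicate 1, 248 and 295 in WTKL replicate 2, 273 and 324 in LYZKL replicate 1, and 255 and 312 in LYZKL replicate 2. In every library the shorter row held fewer reads than the longer row around it. The same nesting held in each library for Mir24-1 within Mir3074-1 (27 of 27 reads in WTKL replicate 1), for Mir3074-2 within Mir24-2 and for Mir290b within Mir290a. The pair of rows named Mir677 held identical reads, 7 and 2 in WTKL and 3 and 1 in LYZKL. The libraries did not mark strand, so a row and an antisense partner cannot be told apart, and a row named for a hairpin on 1 strand also counts RNA of the other. A 150-base read touches a 75-base row from any of 224 start positions, 2.99 for each base of the row. FPKM of such short rows is thus not on quite the same scale as FPKM of a long host gene, and the ratios of row to host below are descriptions.

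Most of the rows lay inside another gene. By GENCODE M21 coordinates (GRCm38, the assembly of mm10), 92 lay in introns of a gene on the same strand and 72 overlapped an exon of a coding transcript on the same strand. Another 39 overlapped an exon of a non-coding transcript on the same strand, such as a retained intron or a long non-coding RNA. In 20 cases the overlapping gene was on the opposite strand only, 17 rows overlapped no other gene, and 4 had no single annotated position. Of the 203 rows inside a same-strand gene, 94 had an end within 5 bases of an exon edge of that host, and in 74 the last base of the row lay directly before the next exon. In 7 rows both ends lay directly at exon edges. Hairpins whose ends are set by splicing are known as mirtrons, and whether splicing makes these hairpins was not tested. Of the 66 rows of this kind with a 3p mature sequence in RefSeq, 53 (80.3%) had one that ended in AG, the letters that close an intron. Among the other rows with a 3p sequence the number was 15 of 86 (17.4%). The 3p sequence of miR-6988 printed above is an example of an end in AG, and its row ended directly at an exon of Syvn1. A row that stops directly before an exon ends where the intron ends. The contrast of 80.3% with 17.4% therefore follows largely from how the rows were picked, and nothing is read from it.

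Rows stood both above and below the level of their host. The median ratio of row to host FPKM was 0.253 for introns, 0.682 for exons of coding transcripts, untranslated regions included, 0.415 for other exons and 0.585 for genes on the opposite strand only. The rows that ended directly at the next exon had a median of 0.182. The spread was wide: in exons of coding transcripts the ratio ran from 0.00732 for Mir7045 in the 5′ UTR of Chd4 to 11.6 for Mir8104 in Ppm1h. Among intronic rows 20 of 92 stood above their host, as did 29 of 71 in exons of coding transcripts. Mir142 was at 13.1 times the level of its long non-coding host Mir142hg, and Mir3060 at 15.9 times that of Rnf215. How a read that touches both a row and a host exon was assigned is not given in the sources used here, and a host value may include reads of the row.

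**Figure D1:**
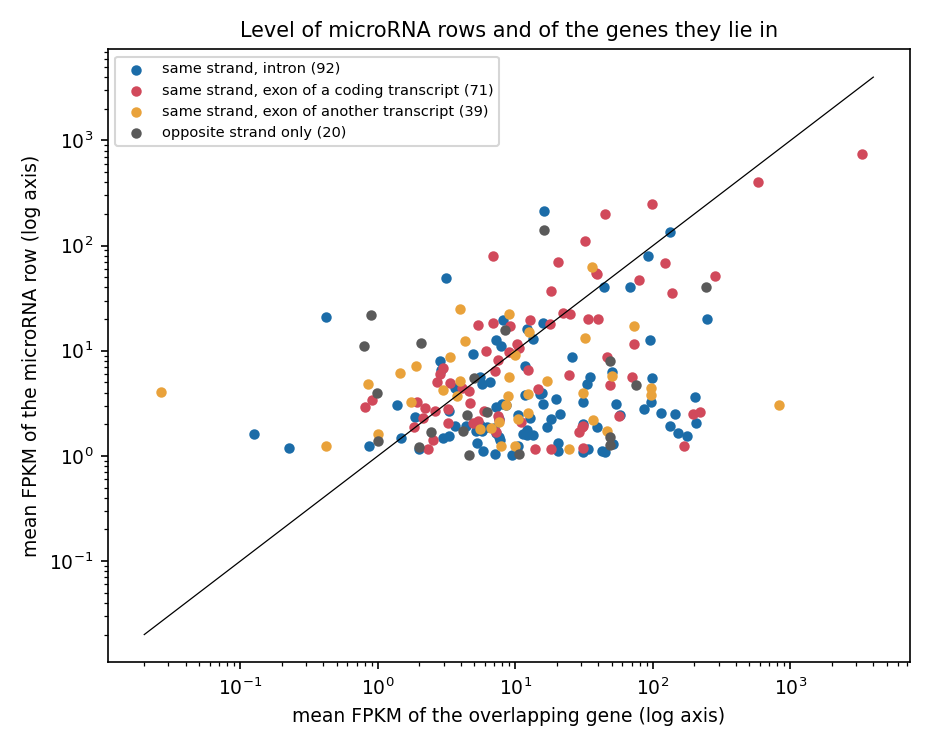
Mean FPKM over the 4 libraries of each microRNA row (vertical, log axis) against that of the gene it lies in (horizontal, log axis); each point is a row, colours give its position, and the line marks equal levels. Points spread on both sides of the line, with 20 of 92 intronic rows and 29 of 71 rows in exons of coding transcripts above it.

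The most abundant row was Mir5107, in the gene of the invariant chain Cd74, which chaperones MHC class II molecules. Its values were 914 and 788 FPKM in WTKL and 673 and 619 FPKM in LYZKL, so both LYZKL libraries were lower. Mir3064, in the helicase gene Ddx5, followed at 427 and 328 FPKM in WTKL and 474 and 367 FPKM in LYZKL, and its groups overlapped. Mir147 lies in the 3′ UTR of AA467197, a transcript that macrophages induce after Toll-like receptor signals. It was at 275 and 223 FPKM in WTKL and 295 and 205 FPKM in LYZKL. Mir142, known as a microRNA of blood cells, was at 204 and 169 FPKM in WTKL and 259 and 217 FPKM in LYZKL. Mir7654, in Arglu1, had a mean of 202 FPKM, and Mir142b, Mir6979 in Diaph1 and Mir3076 in Tkt had means of 142, 136 and 110 FPKM. No other row reached a mean of 100 FPKM, 60 of the 244 reached 10, and 67 lay under 2 FPKM. Of these 8 rows, Mir5107, Mir142, Mir142b and Mir6979 had groups that did not overlap, beside 52.2% of all rows. Mir142 and Mir142b share reads, so they are not separate measurements.

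Before the comparison, the marker genes of the sorted cells were checked. Macrophage markers were high in all 4 libraries, with Cd68 between 367 and 386 FPKM and Adgre1 between 56.0 and 58.7 FPKM. The summed macrophage list was 15665 and 16260 FPKM in WTKL and 7926 and 9305 FPKM in LYZKL; Lyz2, the gene that holds Cre, made up 9560 and 10232 FPKM of it in WTKL and 2614 and 3650 FPKM in LYZKL. Of 11 tested neutrophil markers, 9 were higher in both LYZKL libraries, beside 27.8% of all rows; 0 passed the adjusted threshold in limma and 8 in limma-voom, and their list summed to 2414 and 1889 FPKM in WTKL and 5618 and 3666 FPKM in LYZKL. Ly6g, which defines neutrophils and was used to sort them out, stayed under 1 FPKM in every library. Of 12 tested T and NK cell markers, 12 were lower in both LYZKL libraries, beside 24.4% of all rows, and 0 passed in limma and 8 in limma-voom, with sums of 112 and 106 FPKM against 62.3 and 79.0 FPKM. Siglecf, an alveolar macrophage marker used to gate the cells, was at 6.05 and 6.80 FPKM in WTKL and 15.6 and 15.6 FPKM in LYZKL (adjusted p = 0.0452, limma). It was the 1 of 8 alveolar macrophage markers that passed in limma; 3 of the 8 were higher and 1 lower without overlap, and their median log2 difference was 0.06. The part of these cell types in the microRNA rows was not tested. In such bulk libraries fewer cells of a type and less RNA per cell cannot be told apart.

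Between LYZKL and WTKL, 3 of the 244 microRNA rows passed the adjusted threshold of 0.05 in limma, 1 higher and 2 lower in LYZKL. Mir3060 and Mir7026 fell and Mir6988 rose. Over all 12691 rows tested, 0.292% passed, 0.158% higher and 0.134% lower. Mir7026 and Mir6988 reached the limit of 1 FPKM only through the group that held their reads, so nothing is read from the count of 3 against that share. At an unadjusted p under 0.05 there were 69 microRNA rows, 28.3%, against 18.8% of all rows. In limma the variance of a row is drawn towards that of rows of like FPKM, most of them longer. The microRNA rows held a median of 20 reads, against 1431 for all rows tested. These 2 shares are therefore not like for like, and nothing is read from them. The groups did not overlap in 104 of the 244 microRNA rows, 42.6%, against 52.2% of all rows; LYZKL was the higher group in 65 of the 244, against 27.8% of all rows, and the lower in 39, against 24.4%. The median log2 difference was 0.10 for the microRNA rows and 0.01 for all rows. When limma-voom was run on the rebuilt reads, which gives less weight to rows of few reads, 5 microRNA rows passed, 2 higher and 3 lower. The shares over all rows were then 9.24% in all, 5.74% higher and 3.49% lower, and at an unadjusted p under 0.05 there were 29 microRNA rows, 11.9%, against 22.1% of all rows. The 5 were Mir3060, Mir5107 and Mir6381, which were lower, and Mir5130 and Mir6979, which were higher.

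**Figure D2:**
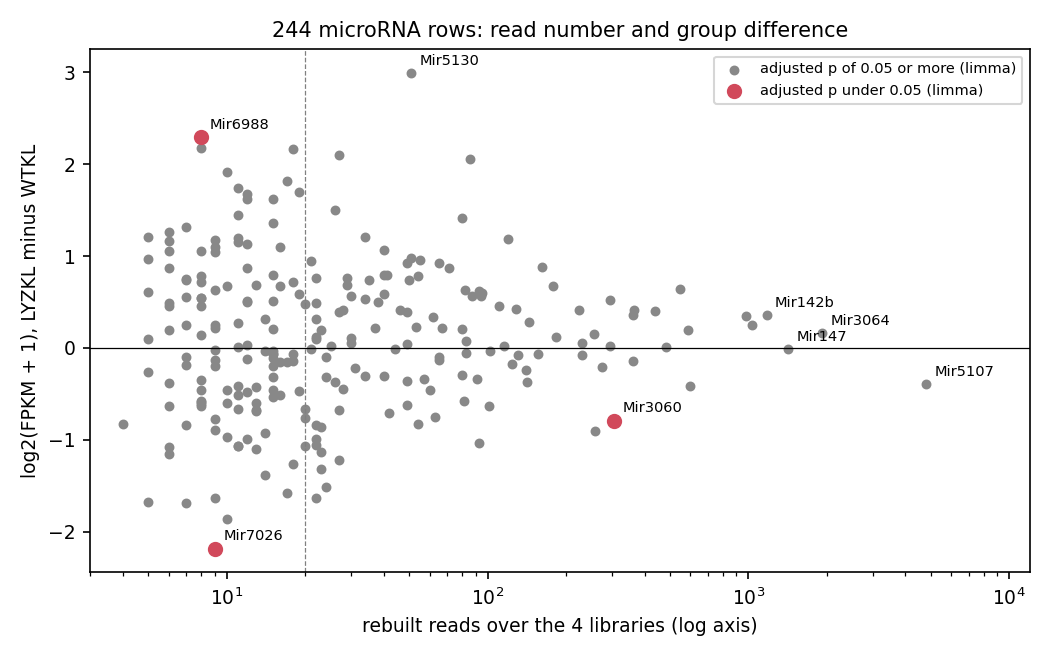
Difference in log2(FPKM + 1), LYZKL minus WTKL (vertical), against the rebuilt reads of the row over the 4 libraries (horizontal, log axis), for the 244 microRNA rows; red points passed the adjusted threshold in limma and the dashed line marks 20 reads. The spread of differences is widest at low reads, and of the 3 red points Mir6988 and Mir7026 lie at 8 and 9 reads and Mir3060 at 305.

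Mir3060 was the only one of the 3 rows that rested on more than a few reads. It lies at chr11:4139364-4139446 on the plus strand, in an intron of Rnf215, which encodes a RING finger protein. It held 81 and 120 reads in WTKL and 50 and 54 in LYZKL, or 63.1 and 63.2 FPKM against 36.6 and 35.5 FPKM. Both LYZKL libraries were below both WTKL libraries, at 36.1 ± 0.780 FPKM (SD, n = 2) against 63.2 ± 0.0877 FPKM (SD, n = 2). The log2 difference was −0.79 (SE 0.05, adjusted p = 0.0452, limma), and limma-voom gave −0.80 with an adjusted p of 0.0352. The pooled reads gave a ratio of LYZKL to WTKL of 0.570, with a 95% interval of 0.446 to 0.726 that covers counting error only. Counting error of 50 to 120 reads in a library is larger than the spread seen between these replicates. The limma SE of 0.05 therefore understates the uncertainty of the difference. The host Rnf215 had 2.72 and 3.45 FPKM in WTKL and 2.86 and 3.42 FPKM in LYZKL, and its groups overlapped (log2 difference 0.02, SE 0.13, adjusted p = 0.950, limma). The row stood at 23.2 and 18.3 times its host in WTKL and at 12.8 and 10.4 times in LYZKL; the difference between row and host was not tested. The limma call ended with no filter (adjusted p = 0.148), without the trend (adjusted p = 0.09999) and with the replicate block (adjusted p = 0.0701). In these settings 0 of all rows passed, so the loss of the call is not particular to Mir3060. As for every row of the table, the call also ended when any library was left out.

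Mir7026 and Mir6988 were read in 1 group only. Mir7026, in an intron of the chromatin remodeller gene Ep400 at chr5:110666075-110666141 on the minus strand, held 4 and 5 reads in WTKL and is listed at 0 in both LYZKL libraries. With a floor of 3 reads set for the empty group, it came out 2.72-fold lower in LYZKL. That value takes the WTKL reads as exact and leaves out their counting error, so it is not a lower bound. Mir6988, in an intron of Syvn1 at chr19:6051334-6051392 on the plus strand, is listed at 0 in both WTKL libraries and held 4 reads in each LYZKL library. With the same floor for WTKL it came out 2.94-fold higher in LYZKL, again without the counting error of the reads that were seen. Syvn1 encodes a ubiquitin ligase that clears misfolded proteins from the endoplasmic reticulum. Their adjusted p was 0.0452 in limma and 0.0932 and 0.0862 in limma-voom. As for every row of the table, neither limma call held when a library was left out. Altogether 6 rows had 0 reads in both libraries of a group, 3 in WTKL and 3 in LYZKL. The hosts differed by −0.06 (SE 0.06) for Ep400 and −0.04 (SE 0.09) for Syvn1 on the log2 scale.

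Mir5130 had the largest difference among the rows with groups apart, an unadjusted p under 0.05 and at least 20 reads. It lies at chr14:102982549-102982632 on the minus strand, in the 5′ UTR of Kctd12, which encodes an auxiliary subunit of GABA-B receptors. It held 1 and 3 reads in WTKL and 27 and 20 in LYZKL, or 0.771 and 1.56 FPKM against 19.5 and 13.0 FPKM. On the log2 scale it differed by 2.99 (SE 0.27); its adjusted p was 0.0579 by limma and 0.0129 by limma-voom. The pooled reads gave a ratio of 13.0, with a 95% interval of 4.74 to 49.5. Kctd12 was higher in both LYZKL libraries as well, at 54.4 and 49.0 FPKM against 41.7 and 40.1 FPKM. Its log2 difference was 0.33 (adjusted p = 0.126 in limma and 0.00903 in limma-voom). The row was at 0.0184 and 0.0390 of the host level in WTKL and at 0.359 and 0.265 of it in LYZKL, and this difference between row and host was not tested.

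A total of 39 rows met the rule of groups apart, an unadjusted p under 0.05 and at least 20 reads, 25 with higher and 14 with lower values in LYZKL. They were 31.5% of the 124 microRNA rows with at least 20 reads (20.2% higher and 11.3% lower), where 18.7% of all rows with as many reads met the rule, 10.9% higher and 7.81% lower. Their adjusted p ran from 0.0452 to 0.266 in limma, and only Mir3060 passed. Of the 33 with a tested host, 25 had the same sign of difference as the host, beside 65 of all 105 such rows with at least 20 reads. In 17 the host had an unadjusted p under 0.05, all with the same sign as the row, beside 26.7% of all tested hosts. The 39 rows were picked for their difference in these same libraries and may share reads with their hosts. Nothing is therefore read from this agreement. The shares of 31.5% and 18.7% rest on limma p-values, so they are not like for like either.

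**Figure D3:**
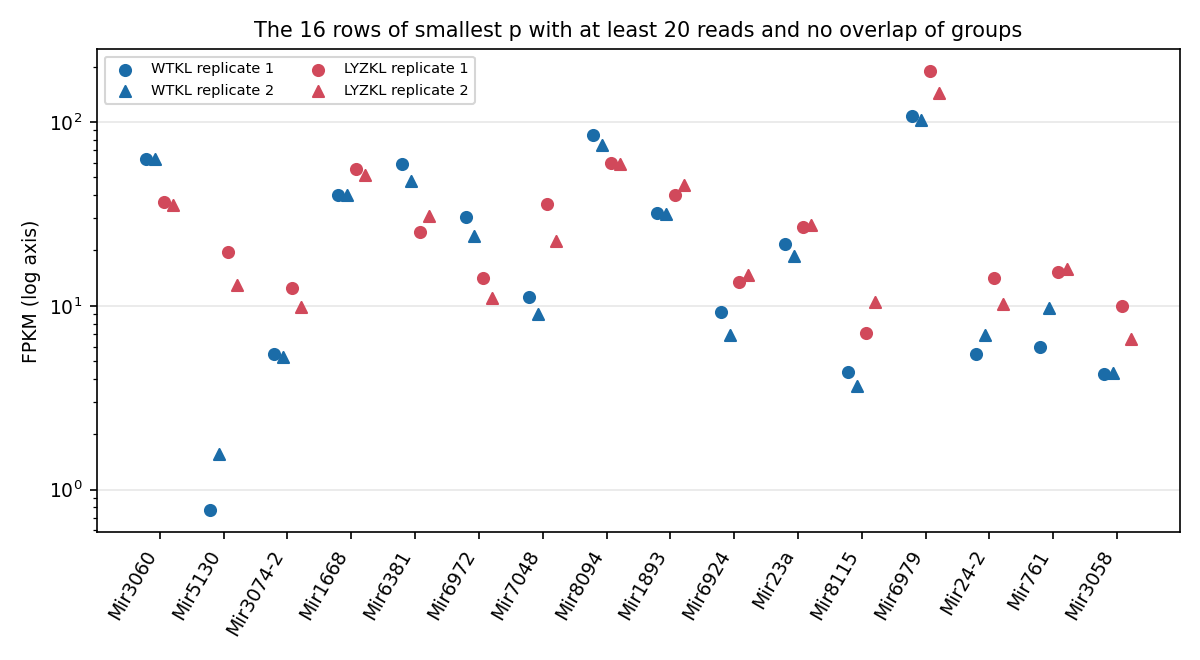
FPKM (log axis) in each library of the 16 microRNA rows of smallest p among those with at least 20 reads and groups that did not overlap; circles are replicate 1 and triangles replicate 2, blue for WTKL and red for LYZKL. Mir5130 shows the widest gap and Mir3060 the tightest replicates, at 63.1 and 63.2 FPKM against 36.6 and 35.5 FPKM. Counting error of the Mir3060 reads is larger than that spread.

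Mir6381, Mir6972, Mir5107 and Mir8094 had lower values in LYZKL together with their hosts. Mir6381 lies opposite an exon of Gbp2, an interferon-induced GTPase that acts against intracellular pathogens. It held 79 and 95 reads in WTKL and 36 and 49 in LYZKL, a log2 difference of −0.91 (SE 0.14, adjusted p = 0.0866 in limma and 0.0482 in limma-voom). Gbp2 was at 308 and 299 FPKM in WTKL and 168 and 190 FPKM in LYZKL, a log2 difference of −0.76. As strand was not marked, the reads of Mir6381 cannot be told apart from those of Gbp2. Mir6972 lies in an intron of Cfb, the gene of complement factor B, and held 30 and 35 reads in WTKL and 15 and 13 in LYZKL, a log2 difference of −1.04 against −0.69 for Cfb. Mir5107 differed by −0.39 (SE 0.10, adjusted p = 0.154 in limma and 0.0177 in limma-voom), and Cd74 by −0.44. Its ratio to the host overlapped between the groups, at 0.245 and 0.202 of Cd74 in WTKL and 0.254 and 0.209 in LYZKL. Mir8094, in the RNA export helicase gene Ddx39b, differed by −0.42 and its host by −0.28. Each of these 4 rows had groups that did not overlap, and in limma none of the 4 rows or these hosts passed the adjusted threshold; by limma-voom all 4 hosts did, with adjusted p between 6.43e-05 and 0.0234. Gm20547, a gene that also spans Mir6972 on the same strand, passed in limma, with a log2 difference of −0.69 (adjusted p = 0.0483).

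Mir7048, Mir3058 and Mir1668 were among the rows with higher values in LYZKL together with their hosts. Mir7048, directly before an exon of the death-effector gene Dedd2, held 10 and 12 reads in WTKL and 34 and 24 in LYZKL, a log2 difference of 1.41 (SE 0.24, adjusted p = 0.0937, limma) against 0.80 for Dedd2. Mir3058, in an intron of the phosphatase gene Nudt4, held 6 and 9 reads in WTKL and 15 and 11 in LYZKL, with differences of 0.79 for the row and 0.80 for the host. Mir1668, in the adhesion receptor gene Adgre5 (CD97), was at 39.9 and 40.1 FPKM in WTKL and 55.7 and 51.5 FPKM in LYZKL, with differences of 0.41 and 0.50. Rows of the same kind lay in Acap1, Ltb, Adam8 and Tmem184b. Mir6973a in Ltb, the gene of lymphotoxin beta, held 8 and 9 reads in WTKL and 20 and 14 in LYZKL. Mir7062 in the metalloprotease gene Adam8 held 4 and 2 reads in WTKL and 8 and 12 in LYZKL. By limma-voom the hosts Dedd2, Nudt4, Adgre5, Acap1, Ltb, Adam8 and Tmem184b passed, with adjusted p between 8.25e-05 and 0.0178.

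Further rows with groups apart are given beside their hosts. Mir8115, in the 3′ UTR of the ATP-gated channel gene P2rx7, held 8 and 10 reads in WTKL and 14 and 23 in LYZKL, a log2 difference of 0.96 against −0.04 for P2rx7. Mir761, in an exon of Nrd1, held 7 and 17 reads in WTKL and 19 and 22 in LYZKL, a difference of 0.93 against 0.01. Mir5625, in the 5′ UTR of Slc35f6, held 3 and 7 reads in WTKL and 15 and 9 in LYZKL, while Slc35f6 differed by −0.12. Mir7028, in an intron of Tchp, held 6 and 13 reads in WTKL and 1 and 4 in LYZKL, a difference of −1.51 against 0.03 for Tchp. Mir7079, which shares the seed of Mir7028, lies in a retained intron of the ribosomal protein gene Rpl13 and held 10 and 8 reads in WTKL and 3 and 1 in LYZKL, and Rpl13 was also lower in both LYZKL libraries (log2 difference −0.17). The row of Mir6911 with that seed held 1 and 2 reads in WTKL and 2 and 3 in LYZKL, too few to give it a direction. Adjusted p was 0.117 for Mir8115, 0.147 for Mir761, 0.196 for Mir7028 and 0.175 for Mir7079 in limma.

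Over all rows with at least 20 reads and a tested host, the differences of row and host were loosely related. Rows in introns had the same sign as their host in 17 of 30 cases (Pearson r 0.61), rows in exons of coding transcripts in 27 of 45 (r 0.31) and rows in other exons in 17 of 21 (r 0.63). Rows opposite to their host had the same sign in 4 of 9 cases (r 0.35). These are correlations across rows of the same 4 libraries, some of which may share reads with their host. Of 202 tested hosts, taking 1 host per row, 0 passed the adjusted threshold in limma, where 0.292% of all rows did; 54 had an unadjusted p under 0.05, 26.7% against 18.8% of all rows, and the smallest adjusted p was 0.0538. By limma-voom 32 hosts passed, 15.8%, against 9.24% of all rows.

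**Figure D4:**
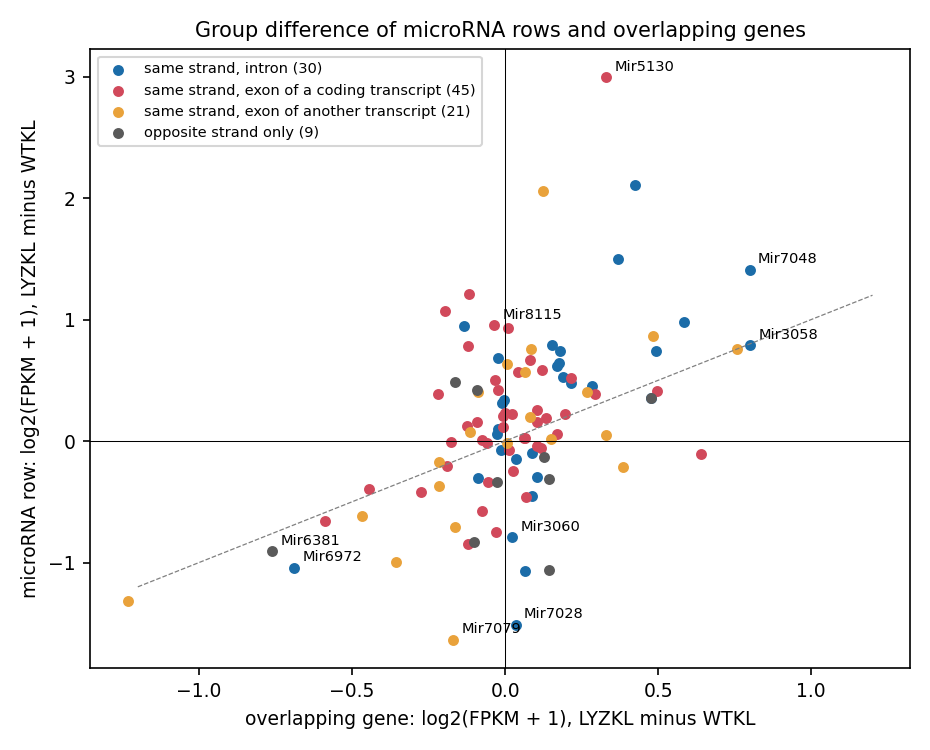
Difference in log2(FPKM + 1), LYZKL minus WTKL, of microRNA rows with at least 20 reads (vertical) and of the gene each lies in (horizontal); colours give the position and the dashed line marks equal differences. Mir6381, Mir6972 and Mir7048 lie on the side of their hosts, while Mir3060 at −0.79 and Mir7028 at −1.51 have hosts at 0.02 and 0.03.

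Of 41 microRNA genes known in myeloid cells that were listed for this comparison, 19 were among the rows above the limit. Another 9 had a row under 1 FPKM, and 13 matched no row by name and were not analysed here. In limma 0 of the 19 passed the adjusted threshold, and in limma-voom 0 as well; at an unadjusted p under 0.05 there were 6 and 3, against 18.8% and 22.1% of all rows. Their median log2 difference was 0.35. The groups did not overlap in 11, with LYZKL higher in 10 and lower in 1, beside 27.8% and 24.4% of all rows. Of the 10, Mir511 and Mir212 reached the limit only through LYZKL, with WTKL means of 0.686 and 0.961 FPKM. Mir23a, Mir27a and Mir24-2 share a primary transcript and are not independent. Nothing is therefore read from this count or from the median. Neutrophil markers also had higher values in LYZKL, as given above, and their part in these rows was not tested.

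**Figure D5:**
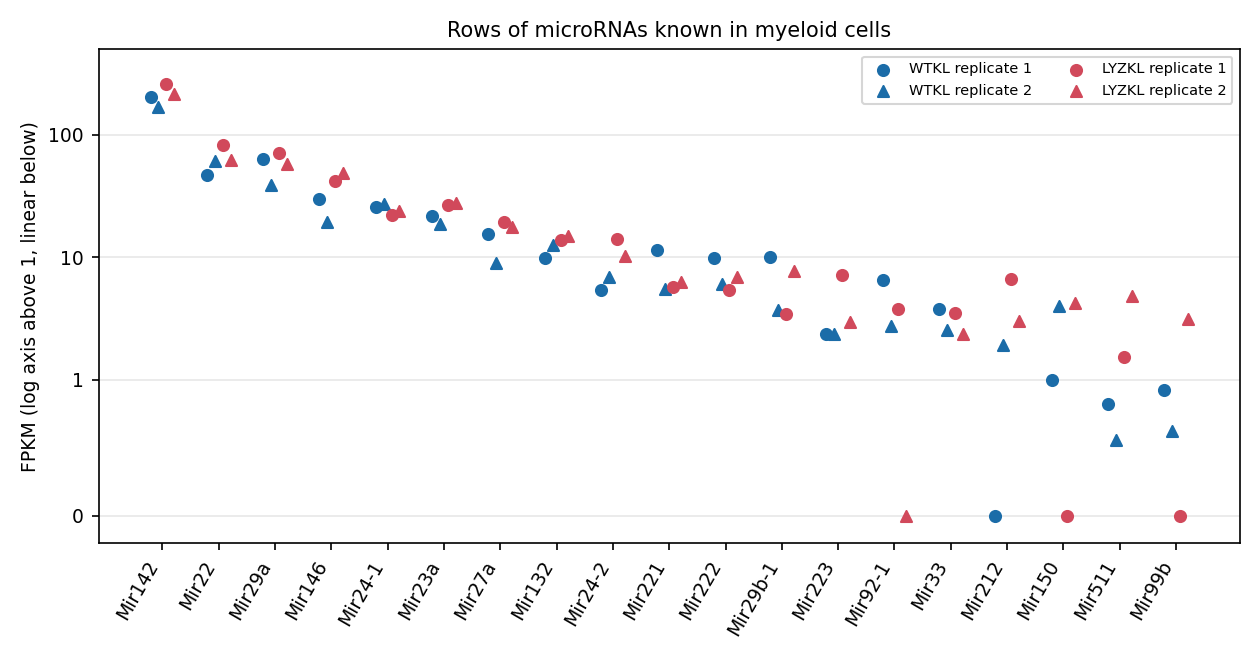
FPKM in each library of the 19 listed myeloid microRNA rows above the limit (log axis above 1 FPKM, linear below), ordered by their mean; circles are replicate 1 and triangles replicate 2, blue for WTKL and red for LYZKL. Levels run from 213 FPKM for Mir142 to 1.17 FPKM for Mir99b, and the groups overlap in 8 of the 19 rows.

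Mir146, the gene of miR-146a, which NF-kB induces and which dampens Toll-like receptor signalling, overlaps no annotated gene. It held 30 and 29 reads in WTKL and 45 and 58 in LYZKL, or 29.8 and 19.5 FPKM against 42.1 and 48.7 FPKM. Its log2 difference of 0.88 (SE 0.22) had adjusted p-values of 0.154 (limma) and 0.0817 (limma-voom). The pooled reads gave a ratio of 1.92, with a 95% interval of 1.38 to 2.70. Mir142 and its host Mir142hg both had higher values in LYZKL, with log2 differences of 0.35 (SE 0.13, adjusted p = 0.272) and 0.48 in limma. Mir22 lies in an exon of Mir22hg and was at 47.0 and 61.2 FPKM in WTKL and 81.9 and 62.0 FPKM in LYZKL, a log2 difference of 0.40 against 0.27 for Mir22hg. Mir223, the microRNA of granulocytes, held only 4 and 6 reads in WTKL and 13 and 6 in LYZKL. The antisense-class transcript F630028O10Rik around it was at 2.88 and 2.23 FPKM in WTKL and 5.39 and 4.62 FPKM in LYZKL (adjusted p = 0.00193 in limma-voom).

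The cluster of Mir23a, Mir27a and Mir24-2 on chromosome 8 had higher values in both LYZKL libraries at all 3 rows. Mir23a held 25 and 32 reads in WTKL and 33 and 38 in LYZKL. Its log2 difference of 0.42 (SE 0.08) had adjusted p-values of 0.116 (limma) and 0.448 (limma-voom). As for Mir3060, counting error of so few reads is larger than that limma SE. Mir27a was at 15.6 and 9.05 FPKM in WTKL and 19.6 and 17.6 FPKM in LYZKL, and Mir24-2 at 5.44 and 6.95 FPKM against 14.2 and 10.2 FPKM. Mir3074-2, which shares bases with Mir24-2, had a log2 difference of 0.93 (adjusted p = 0.0663 in limma and 0.270 in limma-voom). The other gene of miR-24-3p, Mir24-1 on chromosome 13, had slightly lower values in LYZKL, 22.3 and 24.1 FPKM against 25.7 and 27.0 FPKM. Its log2 difference was −0.18 (adjusted p = 0.262 in limma and 0.805 in limma-voom). Mir27b, in the same part of chromosome 13, held 12 and 4 reads in WTKL and 4 and 6 in LYZKL. The 3 rows on chromosome 8 are known to share a primary transcript, so they are not 3 independent measurements.

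In most of the remaining families the groups overlapped. Mir29a was at 63.2 and 39.3 FPKM in WTKL and 71.1 and 57.7 FPKM in LYZKL, and its neighbour Mir29b-1, with the same seed, at 10.0 and 3.70 FPKM against 3.42 and 7.69 FPKM. Mir221 held 17 and 12 reads in WTKL and 9 and 11 in LYZKL, and Mir222 held 12 and 11 against 7 and 10. Mir132 was at 9.80 and 12.6 FPKM in WTKL and 13.8 and 14.9 FPKM in LYZKL (adjusted p = 0.272, limma), and Mir212 beside it held 0 and 4 reads against 10 and 5. Mir33, in an intron of the sterol regulator gene Srebf2, held 4 and 4 reads in WTKL and 4 and 3 in LYZKL. Mir511, in an intron of the mannose receptor gene Mrc1, held 1 read in each WTKL library and 2 and 7 reads in LYZKL, while Mrc1 was at 126 to 139 FPKM in all 4.

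For several microRNAs prominent in macrophages the row held almost no reads although the host was measured. Mir155 held 1 read in WTKL replicate 2 and none in the other libraries. Its host Mir155hg was at 6.54 and 6.47 FPKM in WTKL and 3.22 and 4.08 FPKM in LYZKL, a log2 difference of −0.70 (adjusted p = 0.0868 in limma and 0.011 in limma-voom). Mir21a, for which no host value is given here, also held 1 read in all, in LYZKL replicate 1. In the cluster hosted by Mir17hg, which was at 1.60 to 1.84 FPKM, Mir17, Mir18, Mir19a, Mir20a and Mir19b-1 held 1 to 5 reads each over the 4 libraries, and Mir92-1, the last of the cluster, held 8 and 5 in WTKL and 5 and 0 in LYZKL. At this depth a row of 0 reads in a library allows up to 3. Why these rows held so few reads was not tested.

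Genes that make, load, edit and turn over microRNAs were taken from a fixed list. Of 57 listed, 55 were tested, and 0 passed the adjusted threshold in limma, where 0.292% of all rows did. At an unadjusted p under 0.05 there were 2, 1 higher and 1 lower, and the same number by limma-voom after adjustment; 2 of 55 is 3.64%, beside 18.8% and 9.24% of all rows. Tut7, a terminal uridylyl transferase that tags precursor hairpins, was at 106 and 101 FPKM in WTKL and 136 and 125 FPKM in LYZKL, a log2 difference of 0.33 (SE 0.07, adjusted p = 0.118 in limma and 0.00727 in limma-voom). Snd1, a nuclease of the silencing complex, was at 15.1 and 15.8 FPKM in WTKL and 12.7 and 13.2 FPKM in LYZKL, a difference of −0.24 (SE 0.06, adjusted p = 0.155 in limma and 0.0289 in limma-voom). Among the core enzymes the log2 differences lay within their standard errors: Drosha by −0.04 (SE 0.06), Dgcr8 by 0.04 (SE 0.07), Xpo5 by 0.01 (SE 0.12) and Dicer1 by −0.01 (SE 0.07). Ago2 was at 8.34 and 7.53 FPKM in WTKL and 9.21 and 8.80 FPKM in LYZKL, a difference of 0.16 (adjusted p = 0.338, limma). Khsrp, Dcp2 and Pan2, next by p, differed by 0.16, −0.16 and 0.16 with adjusted p of 0.292, 0.326 and 0.366 in limma. The median difference of the 55 genes was 0.01, the same as over all rows to 2 decimals.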

How the data were processed

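Per the labels' protocols, RNA of the sorted cells was selected for poly(A), made into libraries that do not mark strand and read as 150-base pairs. The authors deposited 1 table, of FPKM values, which covers the 4 libraries. Tools named in the submitters' processing notes are featureCounts 2.0.0, HISAT2 2.0.5 and Cell Ranger 6.1.2, with the build mm10 and no roles. The sources used here do not state the annotation, how reads over several genes were handled, or whether reads or pairs were counted. FPKM is divided by row length, so in rows of about 75 bases a change of 1 read moves the value by most of 1 FPKM.

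Rows were placed by name on GENCODE M21 (GRCm38). Whole reads were rebuilt from each value, the row length and the library total (tolerance 0.05 read at the annotated length, 0.003 at a searched length); intervals from them are exact binomial at 95% and cover counting error only. The host of a row is the overlapping gene, same strand first, then exonic, then the highest level. The 12691 rows that averaged 1 FPKM or more were tested on log2(FPKM + 1) with limma 3.58.1 (R 4.3.3), with a mean-variance trend, two-sided, Benjamini-Hochberg over all of them, threshold 0.05. That scale understates the change of low rows. With 2 against 2 libraries an exact permutation test cannot go below p = 0.333, so none is given.

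Rows are named by a rule: all past the threshold, those with groups apart, an unadjusted p under 0.05 and at least 20 reads, the 12 highest by FPKM and by reads, 3 on each side of 1 FPKM, and a list of myeloid microRNAs. From the pathway list came the 6 of smallest p and the core enzymes. Rows outside it (Mir27b, Mir29c, Mir6911, Mir7045, Mir290a, Mir290b, Mir677 and Mir3068) were chosen after their values were seen. Not all rows the rule selects are described. The rows, lists and tests were chosen with earlier results of these data known. Marker lists of B, dendritic, epithelial, endothelial, fibroblast, red and platelet cells were low, each under 35 FPKM in sum.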

Additional observations from a re-analysis of the deposited data

How the results depend on the processing

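The count of microRNA rows past the adjusted threshold, 3 in limma, was 3 with a pseudocount of 5 and with median centring, and 1 with a pseudocount of 0.1 or when only rows with at least 20 reads were counted. It was 7 of 94 when the filter was raised to 5 FPKM (7.45%, against 4.98% of all rows), 5 with limma-voom (2.05% against 9.24%), and 0, as over all rows, without the trend, with no filter and without any 1 library (0 to 0). At an unadjusted p under 0.05 there were then 61, 61 and 68 to 98 rows (25.0%, 25.0% and 27.9% to 40.2%, against 17.8%, 11.4% and 11.3% to 18% of all rows); with 1 library left in a group, that library is assumed to vary like the other group. With the replicate number as a block it was 0 (93 at an unadjusted p under 0.05, 38.1% against 18.9%); the labels do not tie the numbers to a mouse or day, and with 2 pairs the correlation of same-numbered deviations was 0.16 over all rows and 0.08 over microRNA rows. Host genes past the threshold were 10 at that higher filter and 32 with limma-voom, and pathway genes 2 with limma-voom; every other setting gave 0 for both. The median log2 difference of microRNA rows lay between 0.054 and 0.20 in all settings. Of 63 named rows, 52 kept their direction in every setting that tested them; at 5 FPKM 48 of the 63 were tested. The others changed sign when a library was left out, their log2 differences then ranging from −0.27 to 0.25 (Mir147), −1.66 to 0.71 (Mir150), −0.84 to 0.11 (Mir221), −0.61 to 0.0035 (Mir222), −0.83 to 0.40 (Mir29b-1), −0.031 to 0.35 (Mir3064), −0.076 to 0.086 (Mir3076), −0.28 to 0.14 (Mir33), −0.37 to 0.076 (Mir6948), −0.13 to 0.64 (Mir7654) and −0.82 to 1.22 (Mir99b). Mir3076 was also at −0.029 with centring and −0.011 with limma-voom, Mir147 at 0.0006 with limma-voom and Mir99b at −0.60 with a pseudocount of 0.1. The cause was not tested. Depth limits all of this: 120 of 244 rows rest on under 20 reads. For that reason the limma shares at an unadjusted p are not like for like between microRNA rows and all rows.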

Other observations

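A few rows outside the naming rule were singled out after their values were seen. Mir194-2 and Mir192, neighbours on chromosome 19 that overlap no other gene, are microRNAs best known from epithelium. Mir194-2 held 0 and 2 reads in WTKL and 8 and 8 in LYZKL, and Mir192 held 0 and 3 against 7 and 5. Both were picked for this difference and reached 1 FPKM through the LYZKL libraries, so no test is given. Summed epithelial markers were at 27.9 and 34.3 FPKM in WTKL and 27.7 and 29.1 FPKM in LYZKL. The cause was not tested.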
